A study of Mus musculus with 6 samples.

Results

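The last 5 Mb of 12 mouse chromosomes, numbers 1, 2 and 10 to 19, were examined for DNA methylation in intestinal organoids. A cytosine position belonged to a distal end when it lay within 5000000 bases of the largest position the deposited table lists for that chromosome and had a value in all 6 libraries. This gave 17250 positions, called sites below, of 24908 rows in the ends and 813850 rows in the whole table. The rest of the same 12 chromosomes held 248125 sites. The organoids carried Apc Min, a truncating allele of Apc, the scaffold that limits Wnt signalling, and all 6 cultures were in organoid medium low in glutamine. Per the series' design text, 3 biological replicates were controls and 3 received DM-aKG, which the series title links with α-ketoglutarate, at a dose and for a time that are not stated in the labels. The labels do not say whether replicates came from separate animals or cultures, so p-values measure the spread between these libraries, which may be technical.

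α-Ketoglutarate is a co-substrate of the TET enzymes, which oxidise methylated cytosine, and of other dioxygenases, and it can be made from glutamine. Mouse autosomes carry the centromere near 1 end, so the high-coordinate end is the one far from it. Subtelomeric DNA next to the telomere repeats is usually heavily methylated in somatic cells, and CpG islands at promoters are usually free of methylation. The assay was reduced representation bisulfite sequencing, in which DNA is cut to enrich fragments rich in CpG before methylated cytosines are read, and the authors' values are whole percentages between 40 and 100, or 0. A 0 can stand for a level under 40% or for no value, so it was treated as no value. Positions with a 0 in any library, fully unmethylated islands included, are thus outside the main levels given here. Coverage is not part of the table, so how many reads stand behind a value is unknown.

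Few promoters of the ends held a site. Of 1055 RefSeq promoters there, each a stretch of 300 bases with 250 upstream of a gene start and 50 downstream, 48 held at least 1 site, which is 4.55%, against 2.60% of 16569 promoters in the rest of the 12 chromosomes. The 4 shown here carried many sites or many CpGs; they were picked after their values were seen. They are Tmem267 (chr13:119488223-119488522, plus strand), which encodes a predicted membrane protein, Csf2ra (chr19:61228369-61228668, minus strand), the α chain of the GM-CSF receptor, the long non-coding gene Gm30989 (chr10:127650656-127650955, minus strand) and Tcfl5 (chr2:180642642-180642941, minus strand), a basic helix-loop-helix factor of the testis. The sequences are from RefSeq on GRCm38.p6, the assembly of mm10, read 5′ to 3′ on the gene's strand. Capitals mark the CpGs with a value in all 6 libraries on at least 1 strand.
Tmem267: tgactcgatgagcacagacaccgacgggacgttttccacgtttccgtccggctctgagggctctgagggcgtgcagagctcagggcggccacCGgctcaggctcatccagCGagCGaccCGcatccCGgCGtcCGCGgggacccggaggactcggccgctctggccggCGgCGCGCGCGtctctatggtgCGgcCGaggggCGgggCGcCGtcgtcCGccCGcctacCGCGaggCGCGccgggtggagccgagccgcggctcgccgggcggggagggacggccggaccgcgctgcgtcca
Csf2ra: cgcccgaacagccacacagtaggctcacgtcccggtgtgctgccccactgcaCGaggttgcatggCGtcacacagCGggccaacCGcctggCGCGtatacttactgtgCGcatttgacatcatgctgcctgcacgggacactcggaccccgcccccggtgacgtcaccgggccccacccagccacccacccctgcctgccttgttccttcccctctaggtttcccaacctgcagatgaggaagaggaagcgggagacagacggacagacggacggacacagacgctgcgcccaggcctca
Gm30989: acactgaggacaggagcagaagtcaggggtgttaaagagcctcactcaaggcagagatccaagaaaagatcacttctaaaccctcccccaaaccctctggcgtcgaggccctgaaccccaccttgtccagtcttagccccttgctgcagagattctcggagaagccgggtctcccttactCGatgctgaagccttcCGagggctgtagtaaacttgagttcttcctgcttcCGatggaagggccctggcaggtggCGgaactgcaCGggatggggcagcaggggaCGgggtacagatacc
Tcfl5: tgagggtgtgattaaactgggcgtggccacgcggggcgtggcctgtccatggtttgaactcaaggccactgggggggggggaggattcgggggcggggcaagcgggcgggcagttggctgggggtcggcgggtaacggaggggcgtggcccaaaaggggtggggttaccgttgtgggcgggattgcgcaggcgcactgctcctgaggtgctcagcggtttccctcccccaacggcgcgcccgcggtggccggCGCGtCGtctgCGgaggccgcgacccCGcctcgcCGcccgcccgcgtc

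The Tmem267 promoter holds 50 CpGs in 300 bases, and 24 of them were measured. It held 34 measured positions on the 2 strands. The position at 119488348, with 89.7% over the 6 libraries, is not on a CpG of this sequence but enters the means. Its mean level was 82.8%, 86.4% and 84.5% in control replicates 1 to 3 and 81.5%, 83.7% and 84.1% in DM-aKG replicates 1 to 3. The groups overlapped. Only positions at 40% or more in all 6 libraries entered, so these means do not cover the CpGs without a value. Cytosines of the gene's strand 60 and 23 bases before the gene start had means over the 6 libraries of 51.5% and 51.3%. On the opposite strand the same 2 CpGs, read 59 and 22 bases before the start, had 84.2% and 82.5%. All other measured positions from 81 to 13 bases before the start lay on that opposite strand. The gene's strand thus had no other value in this stretch. The same bases form the promoter of 3110070M22Rik on the opposite strand, so the values cannot be assigned to one of the pair. Among 736 promoters of the 12 chromosomes with at least 40 CpGs, 4 held any site and 2, which are this overlapping pair, held 10 or more.

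Of the 23 CpGs of the Csf2ra promoter, 7 were measured, at 13 positions, with means of 75.8%, 89.6% and 92.5% in the controls and 96.8%, 89.7% and 93.9% with DM-aKG. Control replicate 1 was lowest and the other 5 libraries lay close together. The measured CpGs sit in the upstream part of the printed sequence. The Gm30989 promoter had 90.8% ± 1.28 (SD, n = 3) in the controls and 90.5% ± 0.699 (n = 3) with DM-aKG, at 12 positions. The Tcfl5 promoter had 35 CpGs, of which 6 were measured at 11 positions close to the gene start. Its levels were 80.6% ± 13.6 and 81.3% ± 6.52, so the control libraries alone spread more widely than the groups differed.

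**Figure D1:**
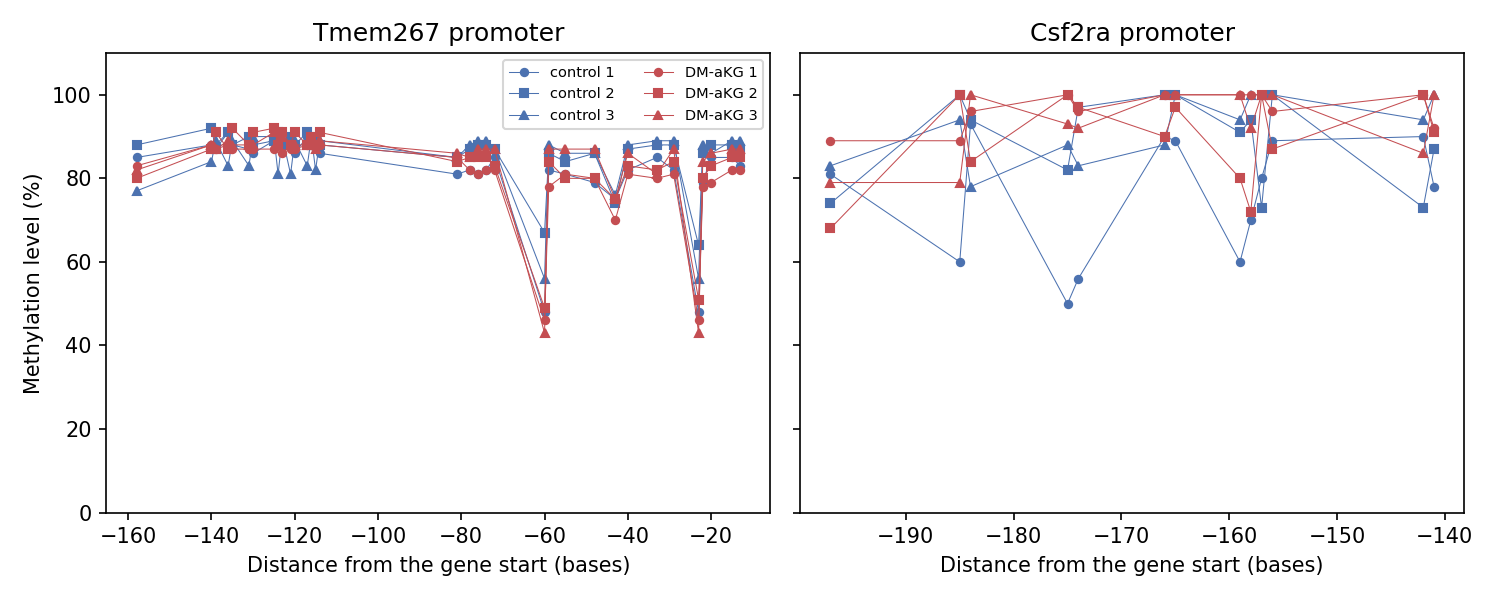
Methylation level in percent, on an axis from 0, of each measured position in the Tmem267 and Csf2ra promoters against distance from the gene start in bases, 1 line per library, controls in blue and DM-aKG in red. In the Tmem267 promoter 2 positions lie near 51.5% and 51.3% in the mean of the 6 libraries and the others are above them; at Csf2ra control replicate 1 runs lowest over most positions.

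Methylation of the ends was high in every library and slightly higher with DM-aKG. The mean over the 17250 sites was 86.3%, 87.3% and 87.4% in the 3 controls and 87.8%, 88.0% and 88.5% in the 3 DM-aKG libraries. The groups did not overlap, with control replicate 1 lowest and DM-aKG replicate 3 highest. The group means were 87.0% ± 0.602 (SD, n = 3) and 88.1% ± 0.331 (n = 3), a difference of 1.09 percentage points (SE 0.397). An exact two-sided permutation test gave p = 0.1, the smallest that 3 against 3 libraries allow. Without control replicate 1 the difference was 0.738 points. With each 0 counted as a level of 0 it was -0.0755 points, the opposite direction. With every valued position of each library, whether or not the others had a value there, it was 0.420 points.

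The rest of the 12 chromosomes moved by almost the same amount. It went from 87.5% ± 0.741 to 88.6% ± 0.277, a difference of 1.04 points, or 0.615 without control replicate 1 and 0.416 with every valued position. The ends minus the rest differed by 0.0431 points between the groups (SE 0.0875), with overlapping values (exact permutation p = 0.6). The level of the ends themselves was below that of the rest in 6 of 6 libraries, by -0.525 points on average ± 0.0987 (SD over 6 libraries, range -0.648 to -0.386). An exact sign-flip permutation test over the 6 libraries gave p = 0.031, the smallest it can give, which speaks of repeatability between libraries and not of the ends being unusual among chromosome segments. With the last 10 Mb in place of the last 5 Mb the sign turned, to 0.212 points. With the last 1 Mb it was -1.20 points, with the 12 chromosomes given equal weight -1.03, and against the neighbouring 5 Mb or the first 5 Mb with rows -1.24 in both cases.

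The 12 ends differ greatly in how many sites they hold. Chromosome 11 had 4258 sites and chromosome 15 had 3563, at 852 and 713 per Mb against 301 and 202 in the rest of these chromosomes. These ends are also rich in genes, with 33.4 and 37.4 annotated genes per Mb. Chromosome 10, with 2210 sites and 40.2 genes per Mb, was similar. At the other extreme the end of chromosome 18 had 83 sites and that of chromosome 17 had 200, with 2.6 and 2.2 genes per Mb. The remaining ends held between 392 sites, on chromosome 13, and 1532, on chromosome 19. A pooled mean therefore leans on chromosomes 10, 11 and 15.

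All 12 ends had a higher mean with DM-aKG, and in 9 of 12 the groups did not overlap. In the rest of the chromosome all 12 were higher, and in 12 of 12 the groups did not overlap. Control replicate 1 was the lowest library in 12 of 12 ends and DM-aKG replicate 3 the highest in 9. The adjusted exact permutation p was 0.133 for each of the ends that did not overlap. On chromosome 2 the 3 controls had 83.3%, 84.7% and 85.2% and the DM-aKG libraries 85.6%, 85.4% and 87.0%, a difference of 1.61 points (SE 0.773). Chromosome 19 had 84.9%, 87.3% and 86.9% against 87.7%, 87.7% and 88.5%, a difference of 1.58 points (SE 0.768). On chromosome 15 the values were 86.0%, 86.6% and 86.8% against 87.2%, 87.4% and 88.2%, and the difference was 1.20 points (SE 0.391). In all 3 ends each DM-aKG library lay above each control.

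The largest mean difference, 2.01 points on chromosome 12, rested on 1 library. The controls there had 82.8%, 86.7% and 86.4% and the DM-aKG libraries 86.7%, 87.4% and 87.9%, and without control replicate 1 the difference was 0.764 points. The end of chromosome 17 behaved alike, with 82.8%, 87.2% and 87.1% against 87.5%, 88.4% and 87.0%. There the difference fell from 1.91 to 0.461 points without control replicate 1, and the groups overlapped. On chromosome 18 the values were 84.3%, 87.0% and 85.9% against 86.7%, 86.0% and 87.2%, and 0.904 points became 0.185, or 1.53 without control replicate 2. Leaving out control replicate 1 also moved the differences of chromosomes 1, 2, 13, 16 and 19 by over 1.5 times. They became 0.875, 1.05, 0.678, 0.390 and 0.869 points from 1.42, 1.61, 1.04, 0.850 and 1.58. On chromosome 13 the difference was 1.62 without control replicate 2 and 0.639 without DM-aKG replicate 2. The ends of chromosomes 10, 11, 14 and 15 changed least without control replicate 1. Their differences became 0.501, 0.661, 0.735 and 0.964 points from 0.674, 0.852, 0.821 and 1.20.

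Chromosome 14 had the most highly methylated end, with 88.6%, 89.0% and 88.7% in the controls and 89.5%, 89.9% and 89.5% with DM-aKG. The end of chromosome 10, with 88.2%, 88.7% and 88.7% against 89.2%, 89.2% and 89.3%, had the smallest SD with DM-aKG, 0.0911. Chromosome 11 had 86.9%, 87.3% and 87.6% against 87.9%, 88.1% and 88.4%. Each of these 3 ends had separate groups with standard errors of the difference between 0.181 and 0.251 points. The ends of chromosomes 1 and 16 also had separate groups, at 88.0% ± 0.944 against 89.4% ± 0.786 and at 87.3% ± 0.814 against 88.1% ± 0.166. Chromosome 13 had the lowest mean of all, with 83.8%, 85.7% and 84.1% against 84.7%, 86.3% and 85.5%, and its groups overlapped.

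**Figure D2:**
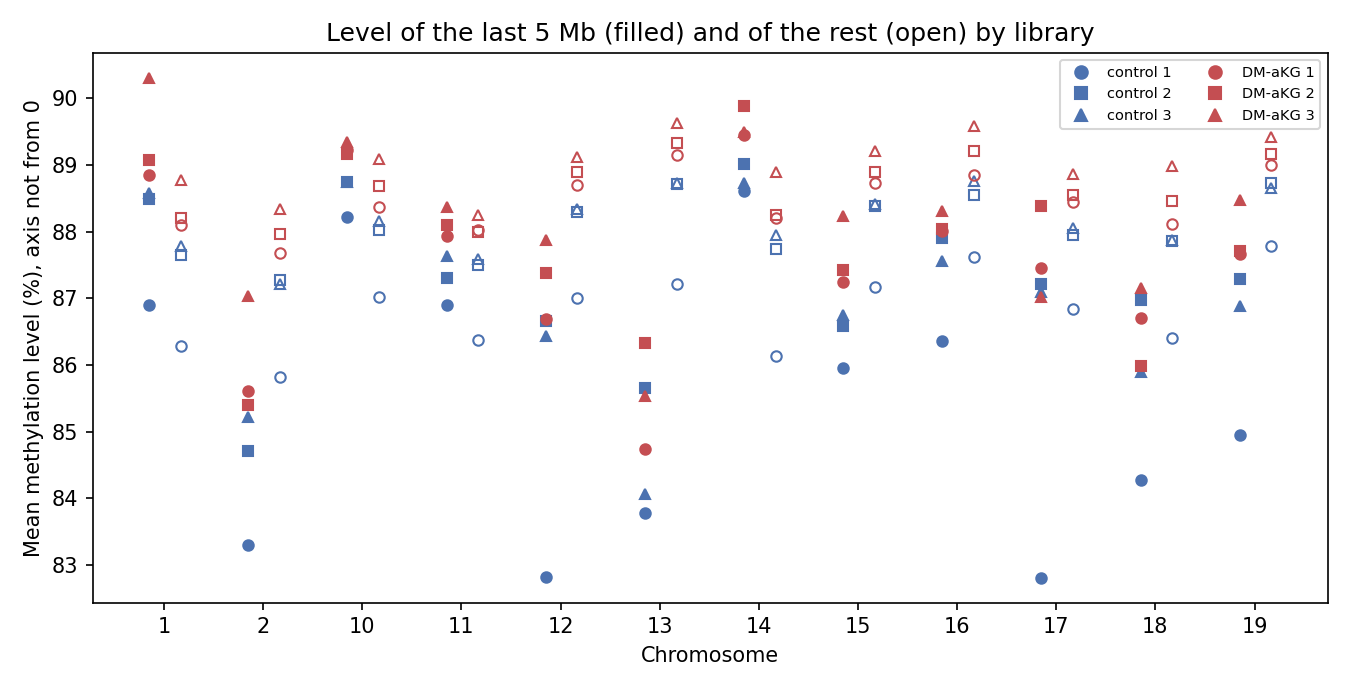
Mean methylation level in percent (axis not from 0) of the last 5 Mb (filled symbols) and the rest (open symbols) of each chromosome, 1 symbol per library, controls in blue and DM-aKG in red. Control replicate 1 has its lowest filled symbols on chromosomes 2, 12, 13 and 17, at 83.3%, 82.8%, 83.8% and 82.8%.

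**Figure D3:**
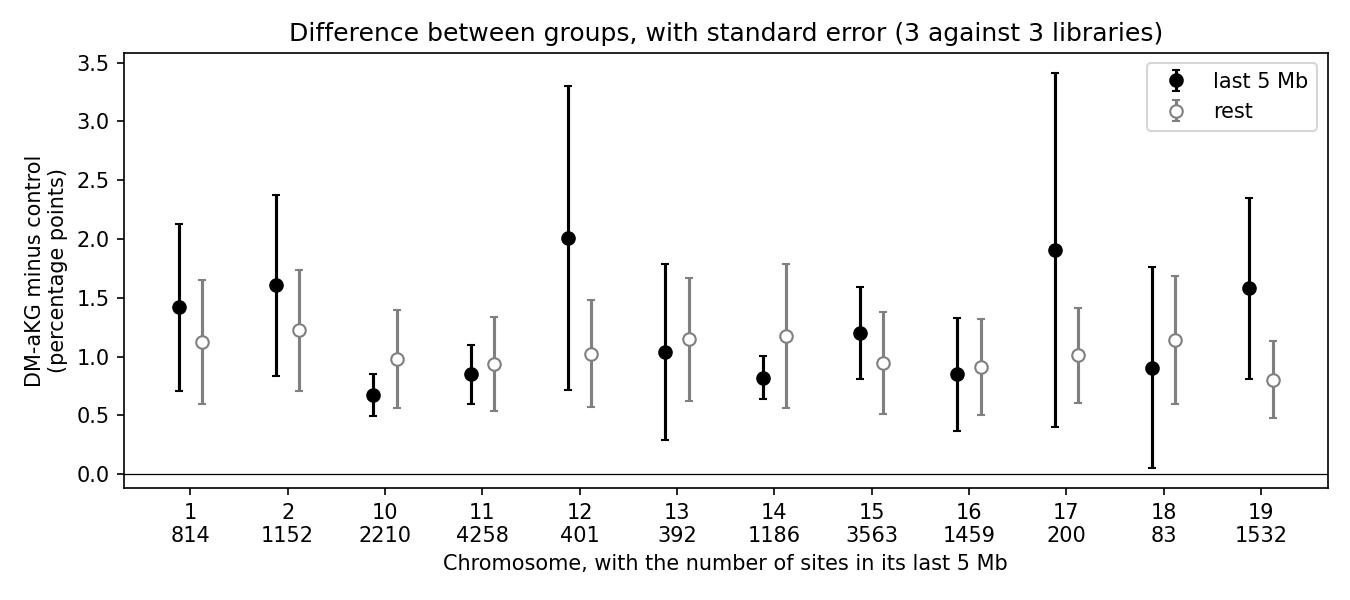
DM-aKG minus control in percentage points for the last 5 Mb (black) and the rest (open grey) of each chromosome, with the standard error of the difference from 3 against 3 libraries. All points lie above 0, and the widest bars of the ends belong to chromosomes 12 and 17, with standard errors of 1.29 and 1.5 points.

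Set against the rest of their own chromosome, 8 ends were lower in 6 of 6 libraries, 3 were higher in 6 of 6 and chromosome 11 was neither. The lower ends ran from chromosome 13, at -3.78 points, through chromosome 2 at -2.17, 12 at -2.08, 18 at -1.78, 19 at -1.63, 17 at -1.46 and 15 at -1.44 to chromosome 16 at -1.06. The higher ones were chromosome 14 at 1.34, chromosome 1 at 0.897 and chromosome 10 at 0.683 points. The adjusted exact sign-flip permutation p over 12 chromosomes was 0.0341 for these 11 ends and 0.531 for chromosome 11, whose mean was 0.0823 points with 4 of 6 libraries above 0. Each of the 11 calls was lost or turned under at least 1 other setting, such as another length of the end. Chromosome 11 in turn passed at 2.52, 2.22 and 0.586 points with ends of 1, 2 and 10 Mb, and at 0.734 with windows weighted equally. It also passed in the other direction, at -0.781 points, against the neighbouring 5 Mb. With all valued positions and against the first 5 Mb it was -0.279 and -0.160 points, not past the threshold. End minus rest did not separate the groups on any chromosome, as 0 of 12 had groups without overlap, with exact permutation p between 0.2 and 1. In 6 of 12 chromosomes the difference with DM-aKG was larger in the end than in the rest.

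Any segment may differ from its chromosome's mean, so each end was ranked among blocks of 5 Mb of the same chromosome. The end of chromosome 13 was the lowest of 23 blocks. Those of chromosomes 2, 12, 17 and 19 were the third lowest of 36, 22, 19 and 12, and chromosome 18 was the fourth lowest of 18. Chromosome 16 ranked 5 of 19 and chromosome 15 ranked 7 of 20 from the lowest. The ends of chromosomes 11, 10, 14 and 1 ranked 15 of 24, 16 of 25, 17 of 23 and 32 of 38. By the difference between groups the ends ranked from 2 of 23, on chromosome 14, to 21 of 22, on chromosome 12, counted from the smallest.

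A few windows of 100 kb weighed heavily on these offsets. On chromosome 13 the window from 119400001 to 119500000, which holds Nnt, Paip1 and the Tmem267 promoter printed above, had 77 of the 392 sites at 79.3%. Without it the offset of that end was -2.40 in place of -3.78 points. The last window of chromosome 19 held the 71 sites of Csf2ra at 76.2%, and without it -1.63 became -1.09 points. On chromosome 18, 18 sites at Socs6, a suppressor of cytokine signalling, had 96.3%, and without them -1.78 became -4.59 points. On chromosome 10 the window of Lrp1, a lipoprotein receptor, gave 335 sites at 91.3%, and without it 0.683 became 0.253 points. The window of Bahcc1 turned chromosome 11 from 0.0823 to -0.229 points when it was left out. These windows were picked as the most influential 1 of each end, after their values were seen.

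By distance from the last position, the outermost 1 Mb had the lowest level. Its 1859 sites had 85.2%, 86.8% and 86.4% in the controls and 87.4%, 87.7% and 87.6% with DM-aKG, so the groups were 1.42 points apart (SE 0.505), or 0.935 without control replicate 1. The next bins of 1 Mb had differences of 0.726, 1.19, 1.11 and 1.09 points, the third of these being 0.697 without that library, and in each of these 5 bins the groups did not overlap (exact permutation p = 0.1). Just inside the 5 Mb limit, between 4 and 5 Mb, the levels were 87.1% ± 0.520 and 88.2% ± 0.317. Just outside it, between 5 and 6 Mb, they were 88.7% ± 0.379 and 89.4% ± 0.364, with overlapping groups and a difference of 0.653 points. The bins draw on different chromosomes, since chromosome 11 gave 36.3% of the sites between 1 and 2 Mb and 39.9% of those between 5 and 6 Mb.

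**Figure D4:**
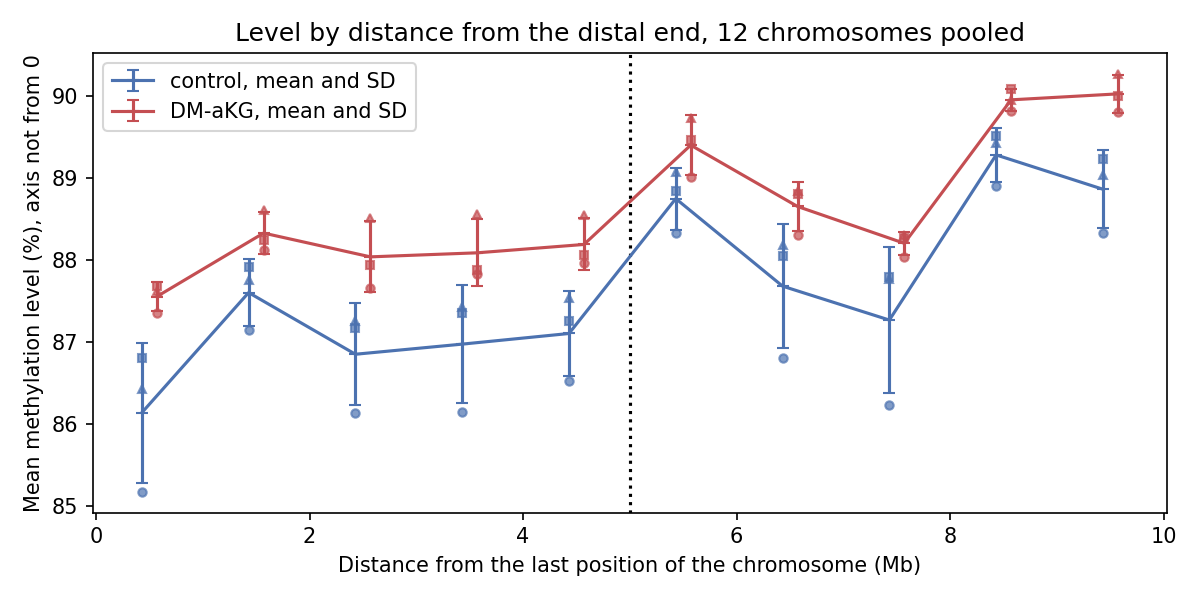
Mean methylation level in percent (axis not from 0) in bins of 1 Mb from the last position of each chromosome, 12 chromosomes pooled, with 1 symbol per library and the mean and SD of 3 libraries per group. The dotted line marks 5 Mb; the outermost bin has 86.1% in the controls and 87.6% with DM-aKG, and the bin between 5 and 6 Mb has 88.7% and 89.4%.

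Most sites of the ends lay in gene bodies. Inside gene spans lay 69.6%, near a gene end (1000 bases or less away) 15.8% and outside genes 14.5%, against 71.5%, 11.7% and 16.8% in the rest. The controls and DM-aKG libraries had 87.5% ± 0.548 and 88.6% ± 0.412 inside gene spans, 85.7% ± 0.271 and 86.6% ± 0.169 near gene ends, and 85.8% ± 1.26 and 87.2% ± 0.403 outside. The groups did not overlap in any of these 3 classes; outside genes the difference of 1.44 points was 0.709 without control replicate 1. Sites with a mean under 80% made up 22.6% of the ends and 20.8% of the rest. They went from 67.7% ± 1.24 to 70.0% ± 1.26, while sites at or above 80% went from 92.6% ± 0.416 to 93.4% ± 0.0610. The end minus the rest had adjusted exact permutation p of 0.0521 or more over these 5 classes.

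Replicate libraries agreed only moderately site by site. The correlation across sites of the ends lay between 0.560 and 0.732 over all pairs of the 6 libraries, within and across groups. It is a description over positions that share fragments. At 6502 pairs of sites 1 base apart, the correlation within pairs was 0.581 to 0.687 by library. Most such pairs should be the 2 strands of a CpG, but this was not checked pair by pair. The group means of 64.6% of sites lay within 5 points of each other and 1.74% differed by over 20 points, against 66.4% and 1.33% in the rest.

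Single sites, genes and windows of the ends were tested with limma over all usable rows of the table, and at an adjusted p under 0.05 no row passed, in the ends or elsewhere (0.0% called in each). Of the 17250 sites, 0 passed on the percent scale, with a smallest adjusted limma p of 0.578. At an unadjusted p under 0.05 there were 930 sites, 602 higher and 328 lower with DM-aKG, beside 5.44% of all sites tested (3.54% higher and 1.89% lower). The groups did not overlap at 785 sites higher with DM-aKG and 421 lower, beside 4.63% and 2.5% of all sites; the ends thus held 4.55% and 2.44%, near the background. With library means made equal the unadjusted calls were 459 higher and 422 lower. Without control replicates 1, 2 and 3 they were 761, 855 and 822 higher and 328, 359 and 308 lower. Without DM-aKG replicates 1, 2 and 3 they were 539, 572 and 487 higher and 461, 503 and 444 lower. Shares over all sites with libraries equalised or left out are not given here, nor those of genes and windows below.

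On the log2 odds scale limma called 28 sites of the ends, 14 higher and 14 lower, beside 0.149% of all sites tested. Each of the 28 had 1 group at exactly 100% in all 3 libraries, where this scale stretches small gaps. At 128737634 on chromosome 10, near Dgka, a diacylglycerol kinase, the 3 controls had 100% and the DM-aKG libraries 69%, 62% and 74%. At 119509918 on chromosome 11, near the endonuclease gene Endov, the controls had 40%, 62% and 67% and the DM-aKG libraries 100%. These 2 sites were chosen after their values were seen.

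The ends hold 1069 annotated genes, of which 626 had a site and 563 had at least 3 and were tested. The level of a gene is the mean of its sites, a flank of 1000 bases on both sides of the span included. The median level was 88.8%, and single genes ran from 54.3%, for 6720468P15Rik on chromosome 19, to 99.3%. No gene passed, and the smallest adjusted limma p was 0.757. At an unadjusted p under 0.05 there were 22 genes, 19 higher and 3 lower, against 6.24% of all genes tested (4.95% higher and 1.29% lower), and 31 on the percent scale. The groups did not overlap for 51 genes higher with DM-aKG and 18 lower, that is 9.06% and 3.20% beside 11.3% and 2.53% of all genes. The mean was higher with DM-aKG for 360 and lower for 201, 63.9% higher against 66.3% of all genes. The median difference was 0.588 points, against 0.733 for all genes, and -0.389 with library means made equal, where the 22 became 19 with 8 higher and 11 lower. Without control replicate 1 there were 17 higher and 11 lower, and without each other library 14 to 19 higher and 3 to 8 lower.

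Uckl1, a uridine-cytidine kinase-like gene (chr2:181569149-181582027), had the smallest p of the lower genes. Its 7 sites had 99.0%, 98.9% and 97.4% in the controls and 91.9%, 95.3% and 92.6% with DM-aKG. The groups did not overlap, and the difference was -5.19 points, or -1.69 ± 0.304 (SE) in log2 odds (limma, adjusted p = 0.757). Its span overlaps Uckl1os and Zfp512b, which share these sites. Lpgat1, a lysophospholipid acyltransferase (chr1:191717554-191784255), had 95.5%, 95% and 94.7% against 93.3%, 91.4% and 89.6% over 10 sites. Every DM-aKG library was below every control at Lpgat1, by -3.63 points on average (limma, adjusted p = 0.764). The non-coding Gm38514, within Dnah17 on chromosome 11, had 84.0%, 84.4% and 81.8% against 80.9%, 73.0% and 70.0%. These are the 3 lower genes with an unadjusted p under 0.05.

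Among the higher genes Krt72, a keratin of the hair follicle's inner root sheath (chr15:101776172-101786520), had a wide gap over many sites. Its 46 sites had 77.8%, 81.4% and 78.6% in the controls and 85.4%, 85.2% and 87.3% with DM-aKG. The groups stood well apart, by 6.70 points, and 5.96 without control replicate 1 (limma, adjusted p = 0.764). Engase (chr11:118476802-118489209), a cytosolic glycosidase that frees N-glycans, overlaps Rbfox3. Its 50 sites had 88.0%, 85.1% and 87.8% against 92.3%, 91.3% and 90.3%, a difference of 4.32 points (limma, adjusted p = 0.764). Cbr3, a carbonyl reductase on chromosome 16, had 90.3%, 90.7% and 80.7% against 96.0%, 97.0% and 100%, over 3 sites only.

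The higher genes with the smallest p of the other chromosomes differed by 1.31 to 9.56 points. Rps6kc1, a ribosomal S6 kinase relative on chromosome 1, went from 89.9% ± 0.289 to 92.0% ± 0.400 over 65 sites. Fndc11 on chromosome 2, which encodes a fibronectin type III domain protein, had 89.5% ± 0.315 and 92.3% ± 0.636. Slc15a1, the peptide transporter of the enterocyte brush border (chr14:121459621-121505254), had 93.5%, 91.6% and 94.1% against 94.6%, 95.9% and 94.9%. All 3 had separate groups, as did Gm31504 at Dgka on chromosome 10, with 67.7% ± 2.73 and 75.4% ± 3.10 over 3 sites only. Itgb8, an integrin chain on chromosome 12, Dok6, a docking protein on chromosome 18, and Gm38597 on chromosome 19 had differences of 5.58, 1.31 and 9.56 points with overlapping groups. They had 4, 41 and 3 sites, and Gm38597 overlaps Afap1l2. Without control replicate 1 the differences were 2.67, 0.435 and 8.06 points. Leaving out any 1 library gave at least 1.33 points for Slc15a1.

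The lower genes of the remaining chromosomes differed by -8.15 to -0.778 points. Rbms2, an RNA-binding protein gene on chromosome 10, had 94.7% ± 1.47 and 91.9% ± 1.67, and Dip2b on chromosome 15 had 94.6% ± 0.671 and 93.2% ± 0.748. Igsf5, a junctional adhesion gene on chromosome 16 that overlaps Itgb2l, had 91.2% ± 0.832 and 88.8% ± 1.22. Pdzd8, which tethers membranes of the endoplasmic reticulum, overlaps Slc18a2 on chromosome 19 and had 96.6% ± 2.28 and 92.1% ± 3.10. The non-coding 1700108J01Rik and D430020J02Rik differed by -2.84 and -0.815 points. Leaving out DM-aKG replicate 3 brought Rbms2, Pdzd8 and D430020J02Rik nearest to 0, at -1.84, -2.76 and -0.537 points. The groups of these 6 genes did not overlap, whereas those of Socs6 did, at -0.778 points (-0.426 without DM-aKG replicate 1). Gm41077, at Nim1k on chromosome 13, had -8.15 points with control replicate 1, at 78.9%, and -1.83 without it.

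The tested genes nearest to each last position varied in level. Csf2ra (chr19:61217191-61228461) lies 0.155 kb from the last listed position of chromosome 19 and had 71.9%, 76.9% and 78.4% against 79.2%, 77.6% and 73.0% over 71 sites. Its groups overlapped. The gene's mean was below that of the 13 promoter positions given above, which are also among its sites. Those positions cover only 7 of the promoter's 23 CpGs, so promoter and gene body cannot be compared. Ptchd3 on chromosome 11, a patched-domain gene of the testis, had 64.2%, 70.3% and 71.7% against 73.4%, 74.8% and 74.5%, a difference of 5.48 points, and 3.22 without control replicate 1. Gm1976 on chromosome 17 had 90.9% ± 2.08 and 94.5% ± 1.44 over 11 sites. AF067063 on chromosome 13 had 90.0% ± 1.0 and 93.1% ± 0.962 over 3 sites only, with separate groups in both genes. Fgf14, a modulator of sodium channels on chromosome 14, had 85.5% ± 2.43 and 87.6% ± 0.586, with overlapping groups and 0.764 points apart without control replicate 1. The other 7 also had overlapping groups, namely Cd46, a complement regulator, Myt1, a neural zinc finger factor, the pheromone receptor gene Vmn2r87, Tmem196, Mucl2, Zbtb21 and Gm18280, with differences of 1.38, 3.20, 3.00, 3.59, 1.33, 0.333 and 1.5 points. Without control replicate 1 these were 1.08, 1.23, 1.35, 0.873, -2.78, 0.185 and -0.0278 points.

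No list of genes by function held a member that passed, by limma on log2 odds, and 3 members had an unadjusted p under 0.05, Dyrk1a, Cbr3 and Krt72, out of 22 such genes in the ends. Of the channels and receptors, 15 were tested, with 13 higher, 2 lower and a median difference of 2.11 points beside 0.588 over all tested genes of the ends. With library means made equal they had 10 higher, 5 lower and a median of 1.13 points, beside -0.389 over all tested genes of the ends. Kcnh1 and Kcnj6, potassium channel genes, had 80.7% ± 3.05 against 84.6% ± 2.69 and 80% ± 3.48 against 83.0% ± 0.114. Kcnj6 had separate groups and Kcnh1 did not, and without control replicate 1 their differences of 3.90 and 2.97 points were 2.14 and 0.965. Of 8 tested keratins of the type II cluster 7 were higher and 1 lower, with a median difference of 2.79 points, or 1.82 with library means made equal, and Krt79 had 88.6% ± 2.37 against 90.7% ± 2.32, 2.12 points apart and 0.752 without control replicate 1. The 12 adhesion and matrix genes had 8 higher and 4 lower members under both scalings, with 77.3% ± 2.06 against 79.6% ± 0.825 at Cdh4, a cadherin, whose 2.33 points were 1.14 without control replicate 1.

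Developmental transcription factors had the lowest median level of the lists with more than 1 gene, 83.9%. The kinase, chromatin, metabolism and gut epithelial lists stood above 92%. The 11 transcription factors had 7 higher and 4 lower members, which turned to 4 and 7 with library means made equal. Ets2 and Erg, ETS family factors, had 92.5% ± 0.734 against 93.2% ± 0.604 and 84.0% ± 2.29 against 86.1% ± 1.92. Leaving out 1 library gave 0.354 to 1.06 points for Ets2 and 0.866 to 3.06 for Erg. The 9 chromatin genes, at a median level of 92.7%, had 7 higher and 2 lower members, or 4 and 5 with library means made equal. Among them Hlcs, which attaches biotin to carboxylases, had 88.5% ± 0.636 against 89.1% ± 1.37 over 238 sites.

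The 10 kinase and signalling genes had a median level of 92.3% and 6 higher and 4 lower members, or 4 and 6 with library means made equal. Rptor, a subunit of mTORC1, and Stk24, a Ste20-like kinase, had differences of -0.735 and -0.180 points with overlapping groups, and -1.55 to -0.215 and -0.705 to 0.762 with 1 library left out. The 11 metabolism genes had a median level of 92.1% and 7 higher and 4 lower members, or 5 and 6 on that scaling. Fasn, the fatty acid synthase, had 92.9%, 91.8% and 92.4% against 91.5%, 89.9% and 94.4%, and Pcca, a propionyl-CoA carboxylase subunit, had 91.7% ± 0.202 against 91.8% ± 0.541. Neither separated the groups. The 5 gut epithelial genes had 4 higher members and 1 lower, and Lama5, a basement membrane laminin that overlaps Adrm1, had 85.3% ± 0.585 against 87.0% ± 2.24, a difference of 1.66 points that was 0.408 without DM-aKG replicate 3. Markers of other cells were hardly covered, with 1 immune gene, Itgb7, at 84.1% ± 1.96 against 85.9% ± 2.0 and 1 endothelial gene, Erg. The difference at Itgb7 was 0.756 to 2.97 points with 1 library left out.

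Windows of 100 kb, which do not overlap, gave 368 tested windows in the ends. Of these 0 passed, with a smallest adjusted limma p of 0.626, and 26 stood at an unadjusted p under 0.05, of which 23 were higher and 3 lower, beside 7.77% of all windows (7.1% higher and 0.675% lower). On the percent scale 28 did, and with library means made equal 19 did, 5 higher and 14 lower. Without DM-aKG replicate 3, DM-aKG replicate 1 or control replicate 1 there were 14, 16 and 18, the last with 12 higher and 6 lower. Groups without overlap were found in 59 windows higher with DM-aKG and 9 lower, 16.0% and 2.45% beside 14.6% and 1.58% of all windows. The median difference was 1.06 points, against 1.04 over all windows. Median levels were 87.9% in the ends and 88.3% in the rest, and 12.8% of windows in the ends and 10.9% in the rest were under 80%.

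The windows with the smallest p were spread over 5 chromosomes. The window from 124500001 on chromosome 14, in Fgf14, had 92.4%, 92.1% and 87.7% against 96.1%, 96.7% and 95% over 7 sites. That from 100500001 on chromosome 15, with the transcription factor genes Tfcp2 and Pou6f1, had 88.0%, 88.9% and 90.3% against 92.2%, 91.7% and 93.0% over 105 sites. At Hs6st3, a heparan sulfate sulfotransferase, the window from 119800001 on chromosome 14 had 82.0% ± 0.665 against 86.2% ± 0.361. The 3 lower windows were at Igsf5 on chromosome 16, at 4 olfactory receptor genes on chromosome 10 from 129000001 and at Lpgat1, with differences of -3.15, -2.89 and -2.26 points. All 6 had groups without overlap and an adjusted limma p of 0.626.

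Low levels stood in few windows, here chosen after their values were seen. The lowest were at 61.0%, at Gm14325 on chromosome 2 from 177800001 and at Gm40797 on chromosome 10 from 126600001, and at 63.1%, in the Hoxc cluster on chromosome 15 from 103000001. The Hoxc window had 62.7%, 62.7% and 61.8% against 63.8%, 66.7% and 60.8% over 13 sites, with overlapping groups. The Gm40797 window had 60.4%, 52.6% and 55.9% against 68.1%, 60.7% and 68.3% over 7 sites, without overlap. At the Dgka promoter (chr10:128737563-128737862, minus strand) the direction was opposite, with 79.4%, 67.6% and 70.5% against 66.1%, 60.4% and 62.9% over 8 positions. These 8 include position 128737634, given above as chosen after its values were seen, so the promoter is no separate observation.

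**Figure D5:**
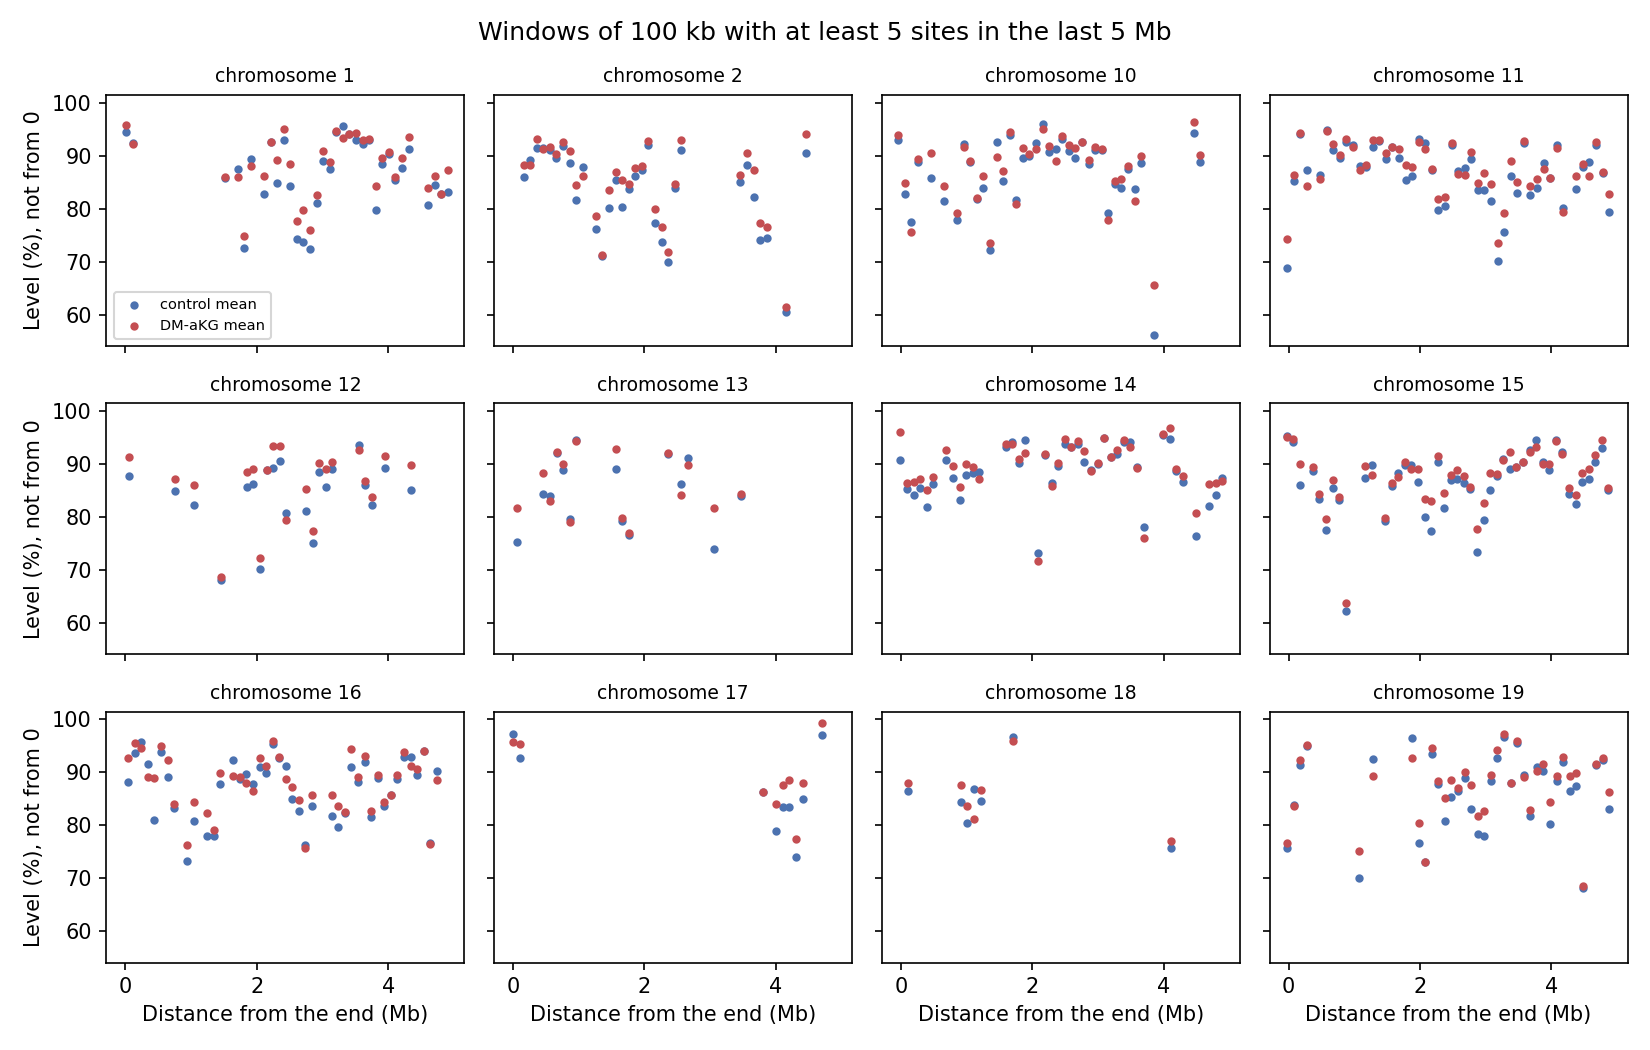
Mean level in percent (axis not from 0) of windows of 100 kb with at least 5 sites in the last 5 Mb of each chromosome against distance from the last position in Mb, control means in blue and DM-aKG means in red. Most windows lie between 78.5% and 93.7%, the 10th and 90th percentiles, and the lowest, at 61.0%, are on chromosomes 2 and 10.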

How the data were processed

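The authors' deposited table gives a methylation percent per cytosine and library, in whole numbers, with no coverage. Per the submitters' processing notes, which name CASAVA 1.8 and Novoalign 3.08.02 without their roles, the build was mm10. No program for calling methylation is given in the sources used here. The table's last 423642 rows were not used, because the columns do not line up there. Of 4203 listed positions in RefSeq promoters, 99.9% fell on a C or G of a CpG when counted from 1, so positions are 1-based.

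Means per library were compared with exact two-sided permutation tests (20 assignments), and ends with the rest by exact sign flips over 6 libraries. Genes with at least 3 sites and windows with at least 5 were tested with limma 3.58.1 (R 4.3.3) as log2 odds, using an offset of 0.01, and sites on the percent itself. Each fit covered all 272327 usable sites, or their 9195 genes or 7409 windows, including the first part of chromosome 3, p-values being adjusted by Benjamini-Hochberg and called under 0.05. Gene spans came from RefSeq (GRCm38.p6, 34610 genes), which gave no exons here. The fits were tested on simulated data. Tables and plots used Python 3.11.15, pandas 2.3.3, numpy 2.4.6 and matplotlib 3.10.9.

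Members, gene lists and rules were chosen with earlier results of these data known. Genes named are, per chromosome, the tested gene nearest to the end and those with the smallest p in each direction, plus the 2 members of each list with the most sites; also the 3 windows per direction with the smallest p. A few genes picked this way are not reported here. The main fits have no replicate block, because the labels do not say that a number pairs samples. Same-numbered libraries did not deviate together (correlations -0.00776 to 0.0190). Alternatives covered zeros, library scaling, end length, weighting, filters, tests and leaving out each library. The percent values carry no depth, so no counting interval could be given.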

Additional observations from a re-analysis of the deposited data

How the results depend on the processing

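Where every 0 was read as an unmethylated position, the ends differed by -0.0755 and the rest by -0.549 points; chromosome ends 1, 10, 14, 16, 17 and 18 turned to -1.41, -1.01, -1.47, -0.688, -4.05 and -1.85, leaving 6 of 12 higher. The ends minus the rest was -0.444, no longer past the threshold, with 0.402 on chromosome 17 and 0 chromosomes past it. Then 1 of 627 tested genes of the ends, Cbln2, and 157 of 24908 sites of the ends were called. The share called over all genes and sites on that setting is not given here, so these counts are not particular to the ends. Genes turned to -1.94 (Cd46), -0.0370 (Cdh4), -1.99 (Dok6), -7.08 (Ets2), -0.417 (Fgf14), -7.38 (Fndc11), -3.67 (Gm18280), -5.22 (Gm31504), -3.07 (Gm38597), -0.883 (Hlcs), 4.78 (Igsf5), -12.9 (Itgb7), -11.2 (Itgb8), -0.917 (Mucl2), -16.8 (Myt1), -4.41 (Pcca), 5.41 (Pdzd8), 1.47 (Rbms2), 0.181 (Rptor), -1.81 (Slc15a1), 3.45 (Stk24) and -0.0167 (Vmn2r87), and the windows at 129000001 (chromosome 10), 119800001 (14) and 96400001 (16) to 4.38, -2.82 and 6.21. With library means equalised, Csf2ra, Ets2, Hlcs, Pcca and Zbtb21 turned to -0.104, -0.326, -0.355, -0.923 and -0.643. With all valued positions of each library, the ends differed by 0.420 and the rest by 0.416 points, the end of chromosome 18 differed by -1.13 and end minus rest was -0.279 on chromosome 11 and, no longer past the threshold, -0.442 on chromosome 17. With ends of 1 Mb, end minus rest turned to 2.12, -2.57, -1.80, 1.66 and 6.63 on chromosomes 2, 10, 14, 16 and 17, and chromosomes 12 and 18, at -0.255 and -0.308, no longer passed. With 2 Mb it was -0.999, 6.63 and 0.822 on chromosomes 10, 17 and 18, chromosome 1 differed by -0.512 with DM-aKG, and the ends differed from the rest by -0.0739 between the groups; chromosomes 1, 14 and 16, at 0.480, 0.259 and -0.927, no longer passed. With 10 Mb that was -0.104, the pooled end minus rest was 0.212, and chromosomes 12, 13, 17, 18 and 19 had 1.39, 0.666, 0.761, 1.04 and 0.0452, and chromosomes 1 and 16, at 0.362 and -0.295, no longer passed. With windows weighted equally these values were -0.135 and -0.364 (not past the threshold). Chromosomes 10, 16 and 17 then had -0.884, 0.00462 and 0.966, and chromosome 15, at -0.200, no longer passed. Chromosome 11, by contrast, passed at 0.734 points on that weighting. It also passed at 2.52, 2.22 and 0.586 points with ends of 1, 2 and 10 Mb. With the next 5 Mb as the rest, an alternative chosen after seeing the data like the following one, chromosome 11 had -0.781 and chromosomes 2 and 10, at -0.550 and 0.172, no longer passed; with the first 5 Mb, chromosomes 11 and 14 had -0.160 and -1.95, and chromosomes 1 and 15, at 0.379 and -1.11, no longer passed. Requiring 1 site per gene called 1 gene, BC147527, whose 1 site was at 50%, 57% and 71% against 100%; log2 odds called 28 sites. Leaving out 1 library gave the pooled end minus rest values from -0.552 to -0.500, always at p = 0.0625, the smallest exact permutation p of 5 libraries, and so 0 to 0 chromosomes past the threshold. It gave the difference of end minus rest between groups -0.00786 to 0.123, chromosome 11 -0.00535 to 0.139, and 0 to 1 called sites, the 1 being at 93392324 on chromosome 16 without control replicate 2. The same ranges were -1.05 to 2.68 for Csf2ra, -1.67 to 0.609 for Fasn, -0.0278 to 3.14 for Gm18280, -0.158 to 1.13 for Hlcs, -2.78 to 3.39 for Mucl2, -0.220 to 0.320 for Pcca, -0.705 to 0.762 for Stk24 and -0.407 to 1.04 for Zbtb21. With the replicate number as a block, the ends differed by 1.09 points at the smallest exact permutation p of 3 pairs, 0.25, and 0 genes, windows or sites were called. The cause of these changes was not tested. Depth limits every value to an unknown extent, since no coverage is given.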
